A study of Mus musculus with 12 samples.

Results

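Potassium channel genes were examined in mIMCD3 cells, an immortalized epithelial line from the inner medullary collecting duct of mice that carry the early region of SV40. The genes are the protein-coding genes whose symbol starts with Kcn, with Kcnn4 left out, and they account for 93 of the 47642 rows of the table. They were chosen by symbol alone, and they were grouped by symbol into voltage-gated (Kcna to Kcnh, with 38 genes), inward rectifier (Kcnj, 15), leak (Kcnk, 14), calcium-activated (Kcnm and Kcnn, 8) and Kcnq (5) genes. A further 13 genes belong to none of these classes (Kcnip, Kcns, Kcnv, Kcnt, Kcnu and Kcnrg).

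Wild-type cells (Wt), Pkd1-/- cells and Pkd2-/- cells were each sequenced as 4 RNA samples, taken 4 days after full confluency from different dishes and with no other treatment. Pkd1 encodes polycystin-1 and Pkd2 the cation channel TRPP2, and loss of either causes autosomal dominant polycystic kidney disease. The Pkd1-/- cells are 1 clone made with CRISPR, with both alleles deleted (chr17:24550055-24594963 and chr17:24550106-24594903). The Pkd2-/- cells are 1 clone made with TALENs, and their deletion spans chr5:104478281-104490878 in the coordinates of the labels. The comparisons address which transcripts depend on each polycystin in an otherwise common epithelial line. All 3 genotypes share the SV40 transgene of the parent line. The 4 samples of a genotype are dishes of 1 line, so their spread does not contain the variation between clones, and effects of the deleted gene and of the clone cannot be told apart.

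Potassium channels let potassium ions leave or enter a cell along their gradient and set the membrane voltage. Inward rectifiers and leak channels are open near the resting voltage, voltage-gated and Kcnq channels open upon depolarization, and calcium-activated channels open when calcium rises inside the cell. In the collecting duct, principal cells secrete potassium into the urine through the apical channel ROMK (Kcnj1). At high flow, potassium is also secreted through the BK channel (Kcnma1). Basolateral inward rectifiers recycle the potassium that the sodium pump brings in.

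Pore-forming subunits share a short selectivity filter, in which the amino acids glycine, tyrosine and glycine, or glycine, phenylalanine and glycine, line the narrowest point of the pore. The filter is shown here because it is what joins these otherwise different genes. In GRCm38 coding sequence, the in-frame pattern GGNTANGGN (glycine, tyrosine, glycine) was found in 61 of the 76 genes for pores or pore-like modifiers, and the pattern GGNTTNGGN (glycine, then phenylalanine or leucine, then glycine) was found in 27. Each of these genes held at least 1 of the patterns, and 12 held both. None of the 17 genes for beta, auxiliary and partner subunits held either pattern, compared with 16.5% of all 21747 protein-coding genes. Only the coding strand and the reading frame were searched, and a match is a match of letters. The windows below hold 45 coding bases each, with the 9 bases of the pattern in capitals. They belong to the most abundant gene (Kcnk1), to genes that fell in a mutant (Kcnk6, Kcnj16, Kcnj2 and Kcnj4) and to genes that rose in Pkd1-/- cells (Kcnd1, Kcnf1, Kcnq1 and Kcnh3).
Kcnk1: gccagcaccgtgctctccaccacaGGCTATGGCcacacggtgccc
Kcnk6: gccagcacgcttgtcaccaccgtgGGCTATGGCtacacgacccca
Kcnj16: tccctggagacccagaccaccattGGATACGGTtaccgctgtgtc
Kcnj2: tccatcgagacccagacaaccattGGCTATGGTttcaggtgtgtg
Kcnj4: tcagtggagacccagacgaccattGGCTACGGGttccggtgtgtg
Kcnd1: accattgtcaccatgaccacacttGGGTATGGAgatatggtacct
Kcnf1: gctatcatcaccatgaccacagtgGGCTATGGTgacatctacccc
Kcnq1: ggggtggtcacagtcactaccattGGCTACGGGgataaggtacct
Kcnh3: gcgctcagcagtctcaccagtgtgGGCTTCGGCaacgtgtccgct
The capitals of Kcnk1 lie at chr8:125995814-126025019, plus strand, and those of Kcnk6 at chr7:29225860-29232162, minus strand, and in both genes they are split by the intron between exons 1 and 2, as are those of Kcnd1 (chrX:7824962-7831178, plus strand). The capitals of Kcnj16 lie at chr11:111024910-111024918, plus strand, those of Kcnj2 at chr11:111072213-111072221, plus strand, and those of Kcnj4 at chr15:79485367-79485375, minus strand, in coding exon sequence. Those of Kcnf1 are at chr12:17175061-17175069, minus strand, those of Kcnq1 at chr7:143191438-143191446, plus strand, and those of Kcnh3 at chr15:99232935-99232943, plus strand. Kcnj16 and Kcnj2, both inward rectifier genes, shared 36 of the 45 bases, compared with 18 of 45 for Kcnj16 and the leak gene Kcnk1. The window of Kcnj4, an inward rectifier gene on another chromosome, also resembles that of Kcnj16. Shared bases were not counted for other pairs of Kcnj genes. Whether the likeness goes with the neighboring positions of Kcnj16 and Kcnj2 on chromosome 11 was not tested.

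The values are normalized counts, which are reads per gene scaled by a size factor of the library and rounded to whole numbers. The normalized counts of a library summed to between 25966273 and 28027792. Pkd1 was at 682 to 883 normalized counts in Wt and at 30 to 49 in Pkd1-/- libraries, whereas the count of Pkd2 (3438 to 4467 in Wt and 3855 to 4135 in Pkd2-/- libraries) does not check the label, because the deletion removes only some of its exons. Of 15 markers of collecting duct and distal epithelium, 11 reached a mean of 10, among them Epcam and Krt8, and these markers moved too: Krt19 had means of 4472, 1329 and 1409 normalized counts and Gata3 of 226.8, 48.5 and 354.2 in Wt, Pkd1-/- and Pkd2-/- cells. The water channel Aqp2 was at 0 in every library and the vasopressin receptor Avpr2 at 1 or less. Markers of other tubule cells moved as well. Atp6v1b1, a proton pump subunit of intercalated cells, had means of 57, 513 and 1 normalized counts in Wt, Pkd1-/- and Pkd2-/- cells, and Foxi1, which defines these cells, was at 0 in every library. Slc4a1 had means of 2, 0.5 and 1.25 and Slc26a4 of 1, 0.25 and 1.5 in Wt, Pkd1-/- and Pkd2-/- cells. The summed level of the 4 intercalated cell markers was 29 to 82 in Wt, 437 to 547 in Pkd1-/- and 3 to 5 in Pkd2-/- libraries. In Wt and Pkd1-/- cells nearly all of that sum was Atp6v1b1. Of 3 proximal tubule markers, Lrp2 moved the other way (508, 46.2 and 934.5). Slc34a1 was at 0 in every library, and Slc5a2 had means of 0, 0 and 1.5. The summed level of the 3, nearly all of it Lrp2, was 474 to 555, 25 to 63 and 740 to 1217 normalized counts. The part of these markers in the results below was not tested. In these samples, fewer cells of a type and less RNA per cell cannot be told apart.

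Most potassium channel genes had few or no counts. Of the 93 genes, 37 were at 0 in every library and 24 reached a mean of 10 normalized counts in a genotype. A count of 0 allows up to 3 counts in a library. Kcnj1 and Kcnma1, the secretory channels named above, were both at 0 in all 12 libraries, as was Kcnj15. A test needed an average of 1 normalized count or more over the 12 libraries, which 37 genes met, and no library of the other 56 genes exceeded 5.

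A single leak channel made up most of the summed level. Per kilobase of exon, Kcnk1 stood at 4356 normalized counts in Wt cells, which is 82.4% of the level summed over all 93 genes, and its share was 82.8% in Pkd1-/- and 88.4% in Pkd2-/- cells. Kcnj16 followed in Wt cells with 373.2 normalized counts per kilobase (7.06%), then Kcnk5 with 257.1 (4.86%), the beta subunits Kcnab2 with 84.2 and Kcnab3 with 70.0, and Kcnn1 with 28.3, which was at the level of Kcnj2 (28.2). The level summed over all genes was 5287 in Wt, 4124 in Pkd1-/- and 7152 in Pkd2-/- cells, and its order was that of Kcnk1. The plot of levels per kilobase shows how far Kcnk1 lies above the rest.

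**Figure D1:**
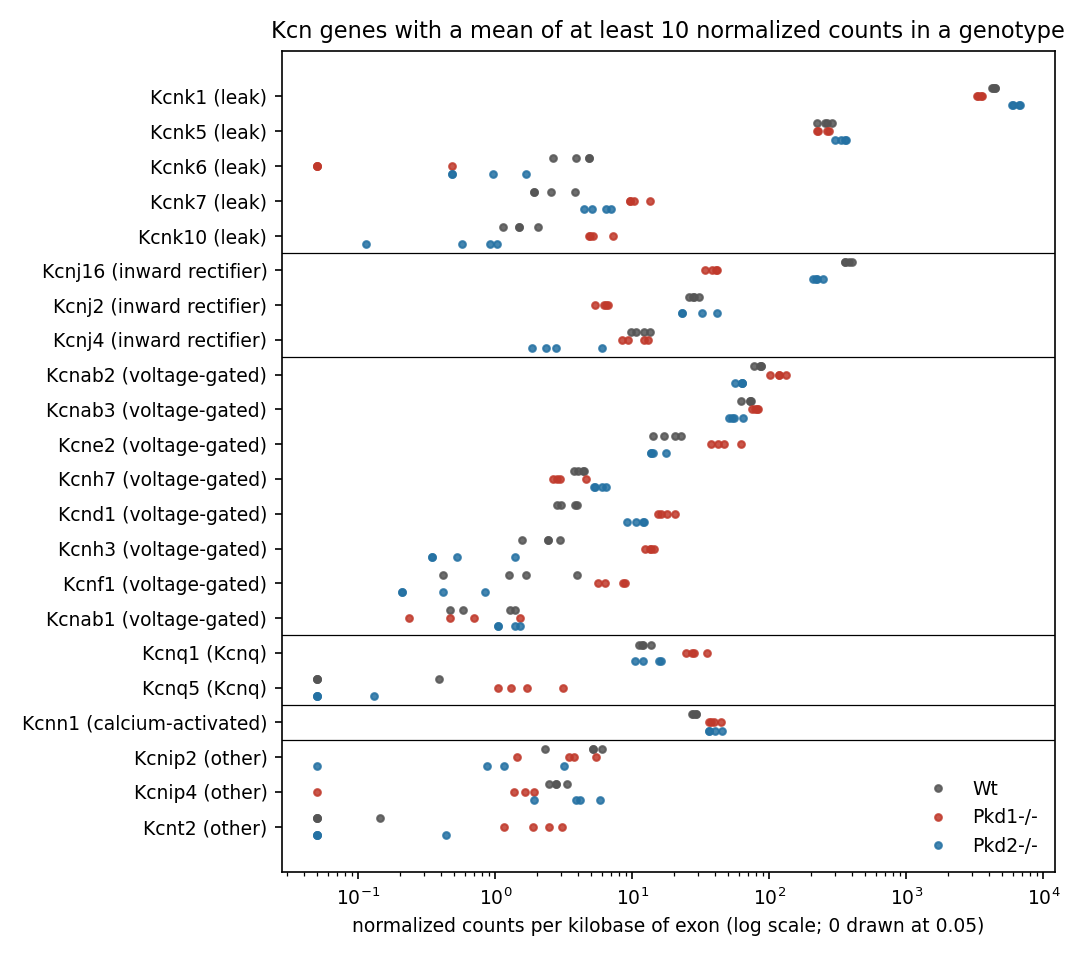
Normalized counts per kilobase of exon (log axis, 0 drawn at 0.05) in each of the 12 libraries for 22 potassium channel genes that reached a genotype mean of 10, with lines between classes. Points are single libraries, in gray for Wt, red for Pkd1-/- and blue for Pkd2-/-; Kcnk1 lies above every other gene in all libraries, and the Pkd1-/- libraries of Kcnj16 and Kcnj2 lie below the others.

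In Pkd1-/- compared with Wt cells, 13 of the 37 tested genes were called. A call required both an adjusted p under 0.05 (limma, over all 18552 genes tested) and a change of 1 or more on the log2 scale in either direction. Of the 13, 10 rose (among them Kcnd1, Kcne2, Kcnf1, Kcnh3, Kcnk7, Kcnk10, Kcnq1, Kcnq5 and Kcnt2) and 3 fell (Kcnj2, Kcnj16 and Kcnk6). The 13 genes are 35.1% of those tested, and 6.24% of all genes were called (2.96% higher and 3.28% lower). Kcnd2, Kcnq5 and Kcnt2 were among the genes that passed the filter on low values only through the Pkd1-/- libraries. Passing in this way favors a call, so such genes are not separate support for the share of 35.1%, which includes Kcnq5 and Kcnt2. Kcnd2 was not called in Pkd1-/- compared with Wt cells (adjusted p = 0.0855 by limma). In Pkd2-/- compared with Wt cells, 10 genes were called, of which 3 rose (Kcnd1, Kcnip3 and Kcnk7) and 7 fell (Kcnf1, Kcnh3, Kcnip2, Kcnj4, Kcnk6, Kcnk10 and Kcnk13). They are 27.0% of the tested genes, compared with 9.62% of all genes (3.24% higher and 6.38% lower). Without the fold change threshold, 13 genes were higher and 4 lower in Pkd1-/- cells (13.6% and 13.5% of all genes), and 7 were higher and 10 lower in Pkd2-/- cells (20% and 22.3% of all genes). For the 37 genes, log2 fold changes had a median of 0.18 in Pkd1-/- and -0.07 in Pkd2-/- cells, beside 0.01 and -0.01 for all genes. Both comparisons use the same Wt libraries. Of the 17 genes called in either mutant, 3 moved alike in both (Kcnd1 and Kcnk7 higher, Kcnk6 lower), and 3 were called in opposite directions (Kcnf1, Kcnh3 and Kcnk10). Compared with each other, the mutants differed in 17 genes (45.9%), 5 higher and 12 lower in Pkd2-/- cells. Of all genes, 11.8% were called (4.53% higher and 7.23% lower). Kcnd2, Kcnq5 and Kcnt2 are among the 12, and they are not separate support for the share of 45.9% either. By the adjusted p alone, 8 potassium channel genes were higher and 17 lower in Pkd2-/- cells, compared with 21.9% and 24.3% of all genes. Kcnd2 and Kcnip4, named here after their values were seen, were called between the mutants but in neither mutant compared with Wt.

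**Figure D2:**
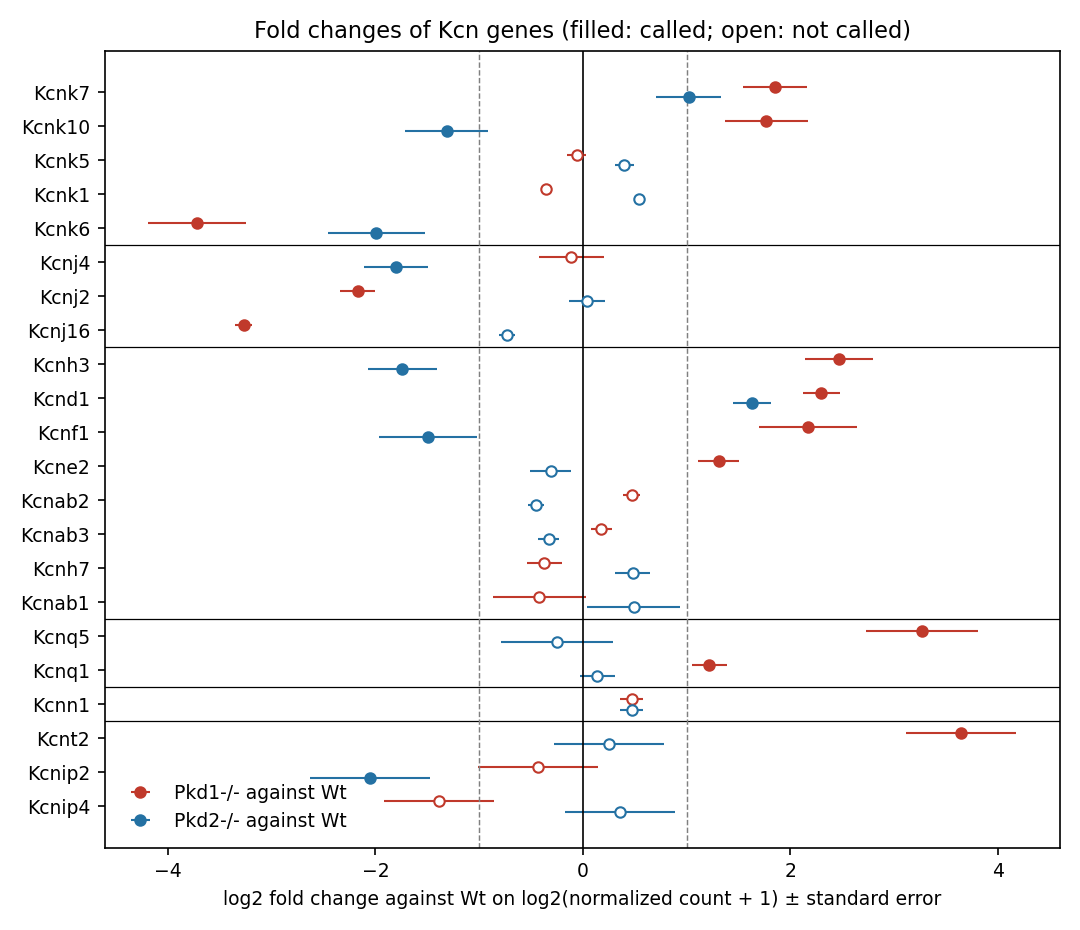
Log2 fold change against Wt (x axis, on log2 of normalized count + 1) for 22 potassium channel genes that reached a genotype mean of 10, with Pkd1-/- in red and Pkd2-/- in blue. Bars are standard errors from limma, filled points are called genes, dashed lines mark a log2 fold change of 1 in either direction, and solid lines separate the classes; Kcnh3 lies at 2.47 in Pkd1-/- and at -1.74 in Pkd2-/- cells.

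Kcnj16 and Kcnj2 fell in Pkd1-/- cells, and Kcnj4 fell in Pkd2-/- cells, while 0 of the 6 tested Kcnj genes rose in either mutant. Of all genes, 2.96% rose and 3.28% fell in Pkd1-/- cells, and 3.24% rose and 6.38% fell in Pkd2-/- cells. Kcnj16 encodes a subunit that forms basolateral channels of the distal nephron together with the product of Kcnj10. Kcnj16 stood at 1500, 1404, 1400 and 1572 normalized counts in the Wt libraries, at 134, 162, 150 and 161 in the Pkd1-/- libraries and at 817, 968, 882 and 867 in the Pkd2-/- libraries. The 3 genotypes did not overlap. Kcnj16 was 9.68-fold lower in Pkd1-/- cells by the ratio of means (log2 fold change -3.27 ± 0.08 SE, adjusted p = 5.21e-16 by limma) and 1.66-fold lower in Pkd2-/- cells (-0.73 ± 0.08, adjusted p = 2.08e-07), a change that passed the p-value threshold but not the fold change threshold. Its partner Kcnj10 was near the detection limit, with 0 to 2 normalized counts in Wt, 0 to 6 in Pkd1-/- and 0 to 3 in Pkd2-/- libraries.

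Kcnj2 encodes a classical strong inward rectifier that holds the resting voltage. Kcnj2 was at 151, 142, 168 and 154 normalized counts in Wt libraries, at 29, 35, 34 and 36 in Pkd1-/- libraries and at 126, 174, 126 and 224 in Pkd2-/- libraries. All Pkd1-/- libraries lay below the others, and the Wt libraries lay within the range of the Pkd2-/- libraries. The ratio of means was 4.59-fold lower in Pkd1-/- cells (log2 fold change -2.17 ± 0.17 SE, adjusted p = 1e-08), and the difference in Pkd2-/- cells was 0.04 ± 0.17 (adjusted p = 0.88). Its sign in Pkd2-/- cells turned when either of 2 libraries was left out, to -0.01 without replicate 2 and to -0.13 without replicate 4. Kcnj4, another strong inward rectifier, was at 29, 21, 26 and 23 normalized counts in Wt, at 26, 28, 20 and 18 in Pkd1-/- and at 13, 6, 4 and 5 in Pkd2-/- libraries. It was 3.54-fold lower in Pkd2-/- cells (-1.80 ± 0.31, adjusted p = 0.000111) with no overlap between Pkd2-/- and Wt libraries, and the difference in Pkd1-/- cells was -0.11 ± 0.31 (adjusted p = 0.843).

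Kcnj16 (chr11:110968033-111027968, plus strand) and Kcnj2 (chr11:111066164-111076821, plus strand) are adjacent in GRCm38, with 38196 bases and 0 listed genes between them. Among the 15 other tested genes within 2 Mb of the pair, the nearest on either side are the kinase gene Map2k6 and the pseudogene Gm11675, each with a log2 fold change of 0.02 in Pkd1-/- cells. The next gene before Map2k6, the lipid transporter gene Abca5, had means of 201.8, 98.8 and 420 normalized counts in Wt, Pkd1-/- and Pkd2-/- cells and was lower in Pkd1-/- (adjusted p = 0.000209) and higher in Pkd2-/- cells (log2 fold change 1.08, adjusted p = 4.6e-05). Sox9, a transcription factor gene on the other side, was at 1.18 in Pkd1-/- cells (adjusted p = 0.00156). Farther out on the side of Map2k6, Rgs9 was at 1.24 in Pkd1-/- cells (adjusted p = 0.00649 by limma). In Pkd2-/- cells, Arsg was at 3.31 (adjusted p = 3.39e-10 by limma), Slc16a6 at 1.57 and Wipi1 at 0.95. Lower there were Amz2 at -0.31 and Map2k6 at -0.35, among others. The median of the 50 tested genes around Kcnj16 was -0.00 in Pkd1-/- cells and 0.06 in Pkd2-/- cells.

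**Figure D3:**
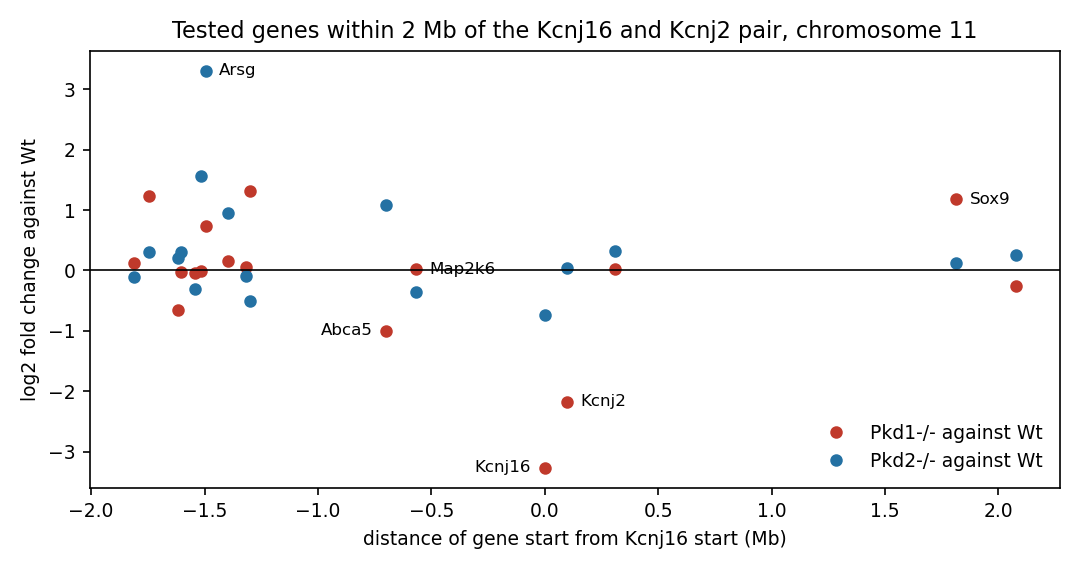
Log2 fold change against Wt (y axis) of the tested genes within 2 Mb of the Kcnj16 and Kcnj2 pair, by the distance of each gene's start from the Kcnj16 start in Mb (x axis), with Pkd1-/- in red and Pkd2-/- in blue. In Pkd1-/- cells Kcnj16 (-3.27) and Kcnj2 (-2.17) lie below the other genes shown, with Map2k6 and Gm11675 at 0.02 to either side.

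The upstream sequences of this pair differ in base composition, and they are shown because both genes fell in Pkd1-/- cells. RefSeq lists 1 start for Kcnj2 and 4 for Kcnj16, and gene counts do not say which start is used. The 250 bases before the start of Kcnj2 (chr11:111065914-111066163, plus strand, GRCm38.p6) hold 14 CG dinucleotides, and those before the first start of Kcnj16 (chr11:110967783-110968032, plus strand) hold 3. The other 3 starts of Kcnj16 have 7, 4 and 1. Over 27025 genes, each taken at its start with the most CG dinucleotides, the median was 6, and 40.2% had 10 or more. Taken in the same way, Kcnj16 has 7. The median was 12 for tested potassium channel genes (57.1% with 10 or more) and 10 for untested ones (52.5%). CG dinucleotides are in capitals.
Kcnj2 upstream: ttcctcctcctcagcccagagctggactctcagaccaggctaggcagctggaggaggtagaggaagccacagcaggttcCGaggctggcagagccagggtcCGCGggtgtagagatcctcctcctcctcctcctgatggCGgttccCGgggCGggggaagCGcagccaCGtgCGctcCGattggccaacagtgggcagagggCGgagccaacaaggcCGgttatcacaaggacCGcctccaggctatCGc
Kcnj16 upstream: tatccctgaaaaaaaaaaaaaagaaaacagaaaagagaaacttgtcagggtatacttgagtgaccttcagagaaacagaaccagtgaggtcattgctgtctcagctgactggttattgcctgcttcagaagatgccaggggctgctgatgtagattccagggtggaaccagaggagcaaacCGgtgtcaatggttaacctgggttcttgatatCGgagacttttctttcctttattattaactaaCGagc
A CG count is a description of these letters, and methylation was not measured.

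Of 14 Kcnk genes, 7 were tested and 4 were called in a mutant. Calls over all genes were 6.24% in Pkd1-/- and 9.62% in Pkd2-/- cells. Kcnk1, which encodes the weakly conducting leak subunit TWIK-1, was at 9468, 9949, 9912 and 9617 normalized counts in Wt libraries, at 7971, 7324, 7800 and 7430 in Pkd1-/- libraries and at 14780, 13517, 14955 and 13255 in Pkd2-/- libraries. The genotypes did not overlap. Its log2 fold change was -0.35 ± 0.05 SE in Pkd1-/- cells (adjusted p = 1.54e-05) and 0.54 ± 0.05 in Pkd2-/- cells (adjusted p = 3.53e-08), and both were under the fold change threshold. Kcnk5, an alkaline-activated leak channel of kidney epithelia, was at 759, 899, 980 and 862 normalized counts in Wt, at 770, 925, 759 and 892 in Pkd1-/- and at 1140, 1021, 1221 and 1235 in Pkd2-/- libraries. It was 1.32-fold higher in Pkd2-/- cells with no overlap (0.40 ± 0.09, adjusted p = 0.000778), and its difference in Pkd1-/- cells was -0.06 ± 0.09 (adjusted p = 0.646).

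Kcnk6, whose product is closely related to that of Kcnk1, was at 16, 20, 11 and 20 normalized counts in Wt, at 0, 0, 0 and 2 in Pkd1-/- and at 4, 7, 2 and 2 in Pkd2-/- libraries. Both mutants lay below Wt without overlap. Kcnk6 was at least 5.58-fold lower in Pkd1-/- cells, set against a floor of 3 counts (adjusted p = 5.91e-06), and 4.47-fold lower in Pkd2-/- cells (log2 fold change -1.99 ± 0.47 SE, adjusted p = 0.00186). Kcnk7, a leak subunit for which no current of its own is known, rose from 4, 6, 3 and 3 normalized counts in Wt to 21, 15, 16 and 15 in Pkd1-/- libraries (1.85 ± 0.31, adjusted p = 0.000149). Kcnk7 was at 7, 8, 10 and 11 normalized counts in Pkd2-/- libraries (1.02 ± 0.31, adjusted p = 0.0123), above every Wt library. That call was at the threshold and was lost without Wt replicate 3 or 4 (0.93 each) and without Pkd2-/- replicate 3 (0.97) or 4 (0.93).

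Kcnk10, the mechanosensitive and lipid-sensitive channel TREK-2, moved in opposite directions. It was at 13, 10, 13 and 18 normalized counts in Wt, at 45, 43, 42 and 63 in Pkd1-/- and at 5, 1, 8 and 9 in Pkd2-/- libraries, and no genotypes overlapped. Its log2 fold change was 1.77 ± 0.40 SE in Pkd1-/- cells (adjusted p = 0.00246) and -1.31 ± 0.40 in Pkd2-/- cells (adjusted p = 0.0129), and the mutants differed by -3.08 ± 0.40 (adjusted p = 3.56e-06). Without Pkd2-/- replicate 2 the difference from Wt was -0.80 and was no longer called. Kcnk13, a halothane-inhibited leak channel, was called lower in Pkd2-/- cells at low levels, with means of 2.75, 8.25 and 0.25 normalized counts in Wt, Pkd1-/- and Pkd2-/- cells. Kcnk4, the remaining tested gene, did not exceed 9 normalized counts in a library.

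Among the 38 voltage-gated genes, 14 were tested. In Pkd1-/- cells 5 rose and 0 fell, and in Pkd2-/- cells 1 rose and 2 fell. Over all genes, 2.96% rose and 3.28% fell in Pkd1-/- cells, and 3.24% rose and 6.38% fell in Pkd2-/- cells. The 5 include a gene that passed the filter on low values only through the Pkd1-/- libraries, which favors a call. Kcnd1, a pore subunit of A-type channels, which inactivate quickly, rose in both mutants. It was at 16, 20, 21 and 15 normalized counts in Wt, at 94, 85, 108 and 82 in Pkd1-/- and at 56, 48, 64 and 63 in Pkd2-/- libraries, with no overlap between genotypes. Kcnd1 was 5.12-fold higher in Pkd1-/- cells (log2 fold change 2.30 ± 0.18 SE, adjusted p = 1.15e-08) and 3.21-fold higher in Pkd2-/- cells (1.63 ± 0.18, adjusted p = 5.39e-07).

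Kcnh3, an ELK-type channel best known from neurons, was at 9, 17, 14 and 14 normalized counts in Wt, at 71, 83, 79 and 78 in Pkd1-/- and at 2, 2, 8 and 3 in Pkd2-/- libraries. The genotypes did not overlap, and the mutants lay on opposite sides of Wt. Kcnh3 was 5.76-fold higher in Pkd1-/- cells (log2 fold change 2.47 ± 0.33 SE, adjusted p = 1.24e-05) and 3.60-fold lower in Pkd2-/- cells (-1.74 ± 0.33, adjusted p = 0.000272). Kcnf1, a modifier that forms no channel alone, was at 6, 2, 8 and 19 normalized counts in Wt, at 30, 27, 42 and 41 in Pkd1-/- and at 4, 1, 1 and 2 in Pkd2-/- libraries. Kcnf1 rose in Pkd1-/- cells (2.17 ± 0.47, adjusted p = 0.00172) without overlap. It was called lower in Pkd2-/- cells (-1.49 ± 0.47, adjusted p = 0.0157), but the libraries overlapped Wt, and the call was lost without Wt replicate 4 (-1.04, adjusted p = 0.0705).

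Kcne2, a single-span subunit that assembles with Kcnq1 and other pores, was at 36, 30, 40 and 25 normalized counts in Wt, at 109, 82, 66 and 75 in Pkd1-/- and at 31, 24, 24 and 25 in Pkd2-/- libraries. It was 2.53-fold higher in Pkd1-/- cells (log2 fold change 1.31 ± 0.20 SE, adjusted p = 6.81e-05) and at -0.31 ± 0.20 in Pkd2-/- cells (adjusted p = 0.251).

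The cytoplasmic beta subunits were the most abundant members of this class per kilobase, and their differences from Wt stayed under the fold change threshold. Kcnab2 was at 476, 487, 485 and 431 normalized counts in Wt, at 567, 651, 738 and 651 in Pkd1-/- and at 352, 353, 315 and 351 in Pkd2-/- libraries. The genotypes did not overlap, at log2 fold changes of 0.47 ± 0.08 SE (adjusted p = 0.000193) and -0.45 ± 0.08 (adjusted p = 0.000139). Kcnab3 was at 179, 206, 210 and 207 normalized counts in Wt, at 235, 234, 224 and 215 in Pkd1-/- and at 184, 152, 158 and 145 in Pkd2-/- libraries. Its log2 fold change was 0.18 ± 0.10 in Pkd1-/- cells (adjusted p = 0.201) and -0.33 ± 0.10 in Pkd2-/- cells (adjusted p = 0.011). Kcnh7, an ERG-type channel, had means of 62.8, 49.5 and 87.8 normalized counts in Wt, Pkd1-/- and Pkd2-/- cells (0.48 ± 0.17 in Pkd2-/-, adjusted p = 0.0346). Gca covers 4.57% of the exon bases of Kcnh7 on the other strand. The strand setting of the counting is not given in the sources used here, so reads in this stretch cannot be told apart.

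Kcnq1 rose in Pkd1-/- cells, and Kcnq5 was tested only because of its level there. Kcnq1, whose slowly activating epithelial and cardiac channels contain Kcne subunits, was at 56, 46, 49 and 48 normalized counts in Wt, at 111, 101, 144 and 116 in Pkd1-/- and at 66, 43, 64 and 49 in Pkd2-/- libraries. All Pkd1-/- libraries lay above the others. Kcnq1 was 2.37-fold higher in Pkd1-/- cells (log2 fold change 1.22 ± 0.17 SE, adjusted p = 1.76e-05), and its difference in Pkd2-/- cells was 0.14 ± 0.17 (adjusted p = 0.564). The imprinted antisense gene Kcnq1ot1, which overlaps 121 exon bases of Kcnq1, was at -0.43 in Pkd1-/- cells. Kcnq5, an M-type channel, was at 0, 3, 0 and 0 normalized counts in Wt, at 10, 13, 24 and 8 in Pkd1-/- and at 0, 1, 0 and 0 in Pkd2-/- libraries. It was at least 4.58-fold higher in Pkd1-/- cells than in either other genotype (adjusted p = 0.000122 compared with Wt).

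Calcium-activated channels were represented by Kcnn1, a small-conductance pore. It was at 127, 126, 134 and 133 normalized counts in Wt, at 173, 180, 205 and 165 in Pkd1-/- and at 166, 208, 183 and 166 in Pkd2-/- libraries. Every mutant library lay above every Wt library, at a log2 fold change of 0.47 ± 0.11 SE in each mutant (adjusted p = 0.00245 in Pkd1-/- and 0.00144 in Pkd2-/- cells), which is under the fold change threshold. Kcnmb4, a beta subunit of BK channels, was the only other gene of this class that was tested, and it was not called.

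Of the 13 genes outside these classes, 6 were tested and 3 were called in a mutant. Among all genes, 6.24% were called in Pkd1-/- and 9.62% in Pkd2-/- cells. Kcnt2, a sodium-activated pore, was at 0, 0, 1 and 0 normalized counts in Wt, at 13, 8, 21 and 17 in Pkd1-/- and at 3, 0, 0 and 0 in Pkd2-/- libraries. It was at least 4.92-fold higher in Pkd1-/- cells than in either other genotype (adjusted p = 3.02e-05 compared with Wt). Kcnt2 was tested only because of its level in Pkd1-/- cells, so this p-value is not separate support. Kcnip2, a calcium-binding partner of Kcnd pores, was at 8, 18, 18 and 21 normalized counts in Wt, at 19, 12, 13 and 5 in Pkd1-/- and at 3, 0, 11 and 4 in Pkd2-/- libraries. It was lower in Pkd2-/- cells (-2.05 ± 0.58 SE, adjusted p = 0.0073), although the libraries overlapped, and its difference in Pkd1-/- cells was -0.43 ± 0.58 (adjusted p = 0.654). Kcnip3, of the same family, was called higher in Pkd2-/- cells at low levels, with means of 1.5, 1.75 and 5.75 normalized counts in Wt, Pkd1-/- and Pkd2-/- cells, at least 1.92-fold higher than Wt.

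**Figure D4:**
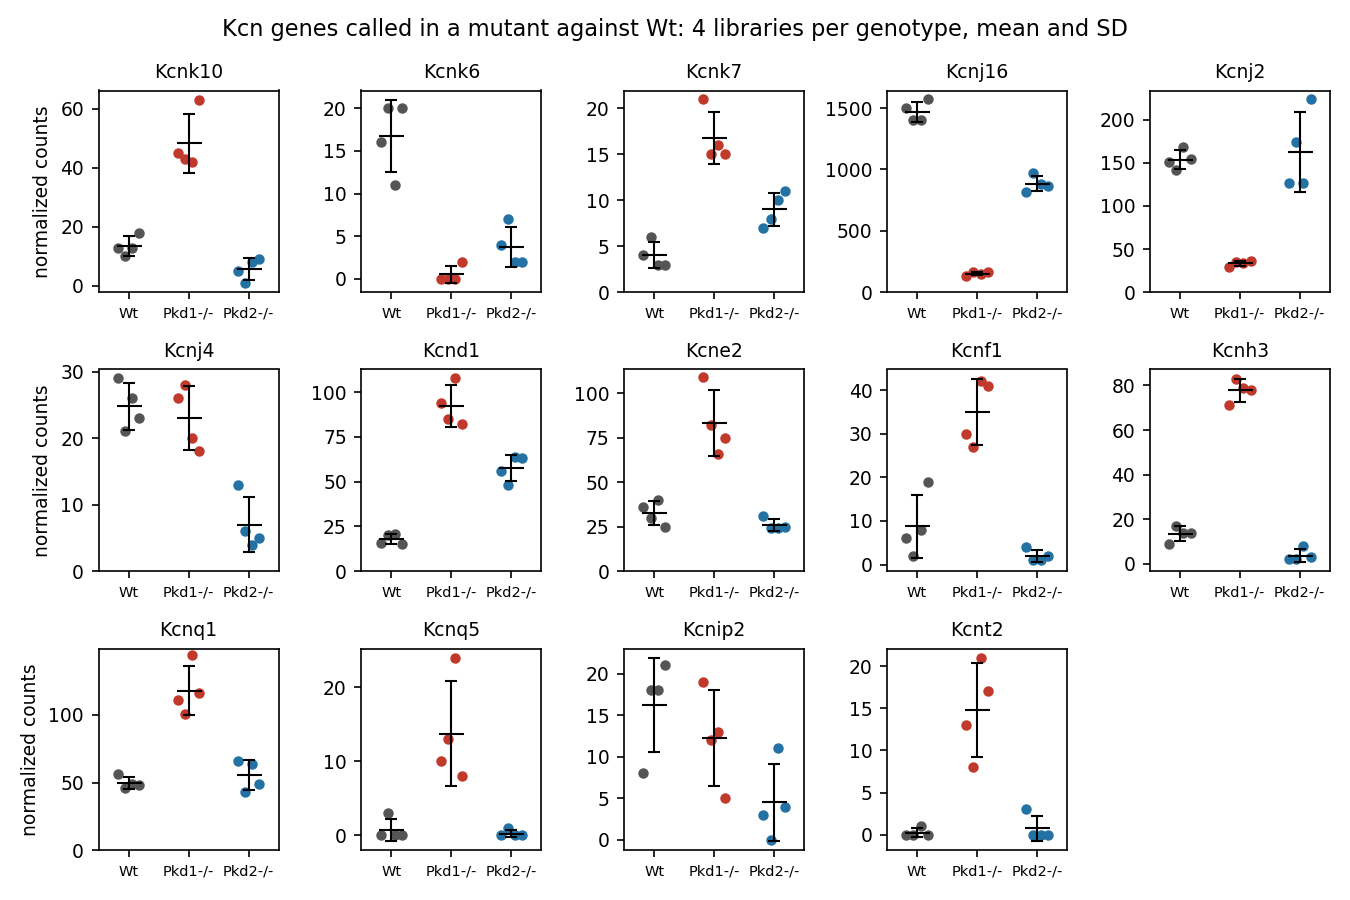
Normalized counts (y axes, linear, each panel with its own scale) of 14 potassium channel genes called in Pkd1-/- or Pkd2-/- against Wt with a mean of at least 10 in a genotype. Points are the 4 libraries of each genotype, and horizontal and vertical bars are the mean and SD; Kcnj16 and Kcnj2 are lowest in Pkd1-/-, Kcnd1 is higher in both mutants, and Kcnq5 and Kcnt2 are at or near 0 outside Pkd1-/-.

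For single genes, the exact permutation test (two-sided, difference of means) has a smallest possible p of 0.0286 at this group size, and that value was reached whenever libraries did not overlap. The libraries did not overlap for 19 of the 37 tested genes in Pkd1-/- compared with Wt cells and for 13 in Pkd2-/- compared with Wt cells, and for 27.1% and 37.2% of all genes.

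Genes of other families that carry potassium or act with its channels were examined as well. Of 45 genes for the sodium pump, proton-potassium pumps, potassium cotransporters, the WNK pathway, channel partners and potassium channels of other families, 26 were tested. In Pkd1-/- cells 1 rose (Fxyd5) and 2 fell (Wnk3 and Stk39), and in Pkd2-/- cells 2 rose (Fxyd5 and Lrrc26) and 2 fell (Slc12a5 and Stk39). These are 11.5% and 15.4% of the 26, beside 6.24% and 9.62% of all genes. Stk39 passed the filter on low values only through the Wt libraries and Lrrc26 only through the Pkd2-/- libraries. Their calls are not separate support for the shares of 11.5% and 15.4%. Stk39, the WNK-activated kinase that switches on cotransporters, had means of 16.5, 0.75 and 0.25 normalized counts in Wt, Pkd1-/- and Pkd2-/- cells and was at least 5.50-fold lower in both mutants. Its paralog Oxsr1 was at 1913, 1914 and 1689. Lrrc26, a BK channel gamma subunit, was at least 4.58-fold higher in Pkd2-/- cells, at means of 0.75, 1 and 13.8 normalized counts in Wt, Pkd1-/- and Pkd2-/- cells. Slc12a2, the basolateral sodium-potassium-chloride cotransporter, had means of 4262, 6487 and 2882 normalized counts, with log2 fold changes of 0.61 ± 0.07 SE in Pkd1-/- (adjusted p = 1.07e-06) and -0.57 ± 0.07 in Pkd2-/- cells (adjusted p = 1.19e-06), and it differed between the mutants by -1.18 ± 0.07 (adjusted p = 3.85e-11).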

How the data were processed

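RNA-seq was done by the authors on 12 mIMCD3 libraries (4 each of Wt, Pkd1-/- and Pkd2-/- cells, grouped by the genotype in the labels). The authors trimmed reads with Trim Galore, aligned them with HISAT2 to GRCm38, obtained a count for each Ensembl gene from htseq-count and scaled it by the size factor of DESeq2. The score values that the authors deposited are such normalized counts, rounded to whole numbers, so models of read counts were not used. The table has 47642 genes, 25060 of them above 0, and 0 unused value columns. From the steps between low values, the reads on genes were estimated for 10 libraries (23200000 to 30400000), and the step could not be read in 2. The limit of 3 counts at 0 covers counting error only. Pairs of replicate libraries differed by 3.89 to 29.4 times the counting noise (mean squared difference over sum), and each was counted as 1 sample.

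Symbols and exon lengths came from GENCODE M21 (47223 of the identifiers matched and 419 did not), and upstream sequences came from RefSeq (GRCm38.p6, with 28 of 37 tested and 40 of 56 untested potassium channel genes matched). Log2(normalized count + 1) was fitted with limma 3.58.1 (lmFit, eBayes with trend) in R 4.3.3, in 1 model of 3 genotypes, for 18552 genes with a mean of at least 1. P-values were two-sided and Benjamini-Hochberg adjusted over all genes, and genes were called at an adjusted p under 0.05 and an absolute log2 fold change of at least 1. A fold against a group whose libraries all hold at most 3 counts is a bound computed with its mean set to 3. The fit was tested on simulated data. Python 3.11.15, numpy 2.4.6, pandas 2.3.3, scipy 1.17.1 and matplotlib 3.10.9 were used for the rest.

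Library by library, values are given for potassium channel genes called in a mutant with a genotype mean of at least 10 and for the 6 with the highest Wt level per kilobase. Genotype means are given for those that passed the p-value alone or were called at lower levels, and other genes are named where a count or a neighbor calls for it. Some genes are counted above but not reported here by name. The genes and lists were chosen with earlier results of these data known. P-values measure the spread between dishes of 1 line. Alternatives were pseudocounts of 0.5 and 5, no filter or a minimum mean of 10, a replicate block, only the 2 genotypes compared, equal upper quartiles, no fold change threshold, and each library left out.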

Additional observations from a re-analysis of the deposited data

Results flagged for a closer look

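Of the potassium channel genes described library by library, 12 were called in a mutant compared with Wt and also between the mutants by limma. Kcnk13 and Kcnip3, described by genotype means only, were also called in Pkd2-/- cells compared with Wt and between the mutants. The log2 difference of Pkd2-/- from Pkd1-/- cells was 2.54 for Kcnj16, 2.21 for Kcnj2 and 1.73 for Kcnk6, which were higher in Pkd2-/- cells. It was -4.21 for Kcnh3, -3.67 for Kcnf1, -3.08 for Kcnk10, -1.68 for Kcnj4, -1.63 for Kcnip2, -1.62 for Kcne2 and -1.08 for Kcnq1. The fitted values of -3.52 for Kcnq5 and -3.40 for Kcnt2 depend on the pseudocount, because all Pkd2-/- libraries of these genes held at most 3 counts, and so does that of Kcnk6, which held at most 2 in Pkd1-/- libraries.

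In 11 of 57 sets of 4 libraries, 1 library lay apart from the other 3 by Dixon's criterion at its 95% level. Chance gives this in about 1 of 20 sets of continuous, normally distributed values. The values here are rounded counts, often small and with ties, so 11 of 57 cannot be set against that rate. In 5 of the 11 sets the values were at the detection limit. Those libraries held 1 normalized count of Kcnq5 and 3 of Kcnt2 in Pkd2-/- cells, 3 of Kcnq5 and 1 of Kcnt2 in Wt cells, and 2 of Kcnk6 in Pkd1-/- cells. The others held 315 of Kcnab2, 31 of Kcne2 and 8 of Kcnh3 in Pkd2-/- cells, 179 of Kcnab3 in Wt cells, and 63 of Kcnk10 and 21 of Kcnk7 in Pkd1-/- cells.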

How the results depend on the processing

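Of 32 called gene comparisons among the 57 described, 19 passed both thresholds under all 19 alternatives. Another 7, of Kcnk6, Kcnk7, Kcnq5 and Kcnt2, were not tested with a minimum mean of 10 and passed under the other 18. The last 6 were lost under at least 1 (Kcnf1, Kcnk7 and Kcnk10 in Pkd2-/- compared with Wt, and Kcnip2, Kcnk6 and Kcnq1 between the mutants). Counts of called potassium channel genes under a minimum mean of 10 were 8 in Pkd1-/-, 6 in Pkd2-/- and 9 between the mutants, where fewer genes are tested. In Pkd2-/- cells the count was 5 with a pseudocount of 5 and 17 without the fold change threshold. The partner genes called numbered 1 in Pkd1-/- and 2 between the mutants with a pseudocount of 5. With a minimum mean of 10 they numbered 0, 0 and 2 in Pkd1-/-, in Pkd2-/- and between the mutants, and without the fold change threshold 10, 14 and 18. Leaving out each library gave 13 to 14, 7 to 11 and 14 to 19 potassium channel genes and 2 to 3, 3 to 4 and 4 to 5 partner genes in the same order. Leaving out a library turned the sign of 4 uncalled differences. Without each library in turn, Kcnj2 in Pkd2-/- cells ranged from -0.13 to 0.15, Kcnn1 between the mutants from -0.07 to 0.06, and, in Pkd2-/- cells, Kcnq5 from -0.50 to 0.25 and Kcnt2 from -0.25 to 0.50. The cause was not tested. Same-numbered libraries correlated at -0.0726 to 0.20, so the numbers were not taken as pairs, and the replicate block gave 13, 10 and 17 potassium channel genes and 3, 4 and 4 partner genes, as without it. Genes at or near 3 counts limit what can be compared at this depth.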
